A study of Rattus norvegicus with 9 samples.

Results

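The genes described here mark the lining of kidney blood vessels and carry 3 of its signals, nitric oxide, endothelin and vascular endothelial growth factor (VEGF). They were chosen by name and identifier, and all 10 were found among the 17862 features of the series. They are the endothelial genes Pecam1 (ENSMUSG00000020717), Cdh5 (ENSMUSG00000031871) and Plvap (ENSMUSG00000034845), the VEGF receptors Kdr (ENSMUSG00000062960) and Flt1 (ENSMUSG00000029648) with their ligand Vegfa (ENSMUSG00000023951), the nitric oxide synthase Nos3 (ENSMUSG00000028978), and Edn1 (ENSMUSG00000021367), Ednra (ENSMUSG00000031616) and Ednrb (ENSMUSG00000022122) of the endothelin system. RNA depleted of ribosomal RNA was sequenced from kidney tissue in 3 groups of 3 samples, all at 6 weeks of age. QDG kidneys were hypertensive and treated with Qingda granule, a herbal medicine from China, Model kidneys were hypertensive with no granule named, and WT kidneys were normal. Strain, granule dose and the way hypertension arose are not given in the labels. Nothing there says that a group's samples are separate animals, so p-values reflect sample-to-sample spread that could be technical. The organism is labelled as rat while the identifiers have the prefix of mouse genes, and which species was sequenced cannot be settled from them.

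Endothelial cells line every vessel of the kidney, from the fenestrated capillaries of the glomerulus to the straight vessels of the medulla. They make nitric oxide through Nos3, which relaxes the smooth muscle around them, and the peptide endothelin-1 from Edn1, which contracts it through the receptor Ednra. The other receptor, Ednrb, clears endothelin from the blood, drives nitric oxide release in endothelium and lowers sodium reabsorption in the collecting duct. VEGF made by podocytes and tubule cells from Vegfa acts on the endothelial receptor Kdr, while Flt1 binds the same ligand tightly and limits its supply.

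The clearest difference lay in the endothelin receptor Ednrb. Ednrb was lower in QDG than in WT kidneys, with a QDG mean 0.564 times the WT mean. It was the only member to pass the test in any of the comparisons in the fit described here. QDG and WT kidneys differ in both hypertension and granule, so this comparison cannot separate hypertension from granule. Ednrb did not pass in QDG against Model or in Model against WT (limma adjusted p = 0.331 and 0.162). The call held in 12 of 20 alternative fits. It was lost whenever a QDG library was left out, where fewer of all features were called as well. Ednra, the opposing receptor, stood higher in every QDG and every Model library than in every WT library. Such separation from WT, in either direction, held for 24.9% of all features in QDG and 24.7% in Model. Ednra was too scarce for the test used for Ednrb, and it did not pass in a fit that kept scarce genes. Edn1, which encodes the ligand of both receptors, and the endothelial markers did not pass either.

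Values are FPKM, reads or fragments per kilobase of gene, scaled to the library total, so levels can be set beside each other between genes. Such ranks are rough, because the species, the genome build and the share of unspliced RNA are not known. Library totals implied by the values were 26.2 M to 31.4 M reads or fragments. Recovered read numbers per gene and library ran from 31 (Edn1, WT 2) to 7354 (Vegfa, WT 3). Unless another test is named, genes were tested with limma on log2(FPKM + 1) over the 12187 features that averaged 1 FPKM or more, with all 9 libraries in 1 fit and Benjamini-Hochberg adjustment over those features; a gene was called at an adjusted p under 0.05. The log2(FPKM + 1) scale understates the change of scarce genes. Of the members, 8 passed the limit of 1 FPKM, while Edn1 and Ednra did not; their values come from a fit without the limit, adjusted over all 17862 features. In bulk tissue, fewer cells of a type and less RNA per cell cannot be told apart.

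Plvap and Vegfa were the most abundant members, with means over the 9 libraries of 68.6 and 42.5 FPKM. These levels exceeded those of 95.7% and 93.2% of all features. Pecam1 (8.68 FPKM), Cdh5 (6.99), Ednrb (5.88) and Kdr (5.47) followed, and their order was not fixed: Cdh5 exceeded Ednrb in 6 of 9 libraries and Ednrb exceeded Kdr in 6 of 9. Plvap stood above Vegfa in 8 of 9 libraries and Pecam1 above Cdh5 in 8 of 9. Below them, Kdr, Flt1 (3.67 FPKM), Nos3 (1.82), Edn1 (0.821) and Ednra (0.547) kept this order in 9 of 9 libraries. No member was at 0 in any library, which also holds for every feature in the files. Nonzero values of the endothelial markers thus do not set them apart from other features.

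**Figure D1:**
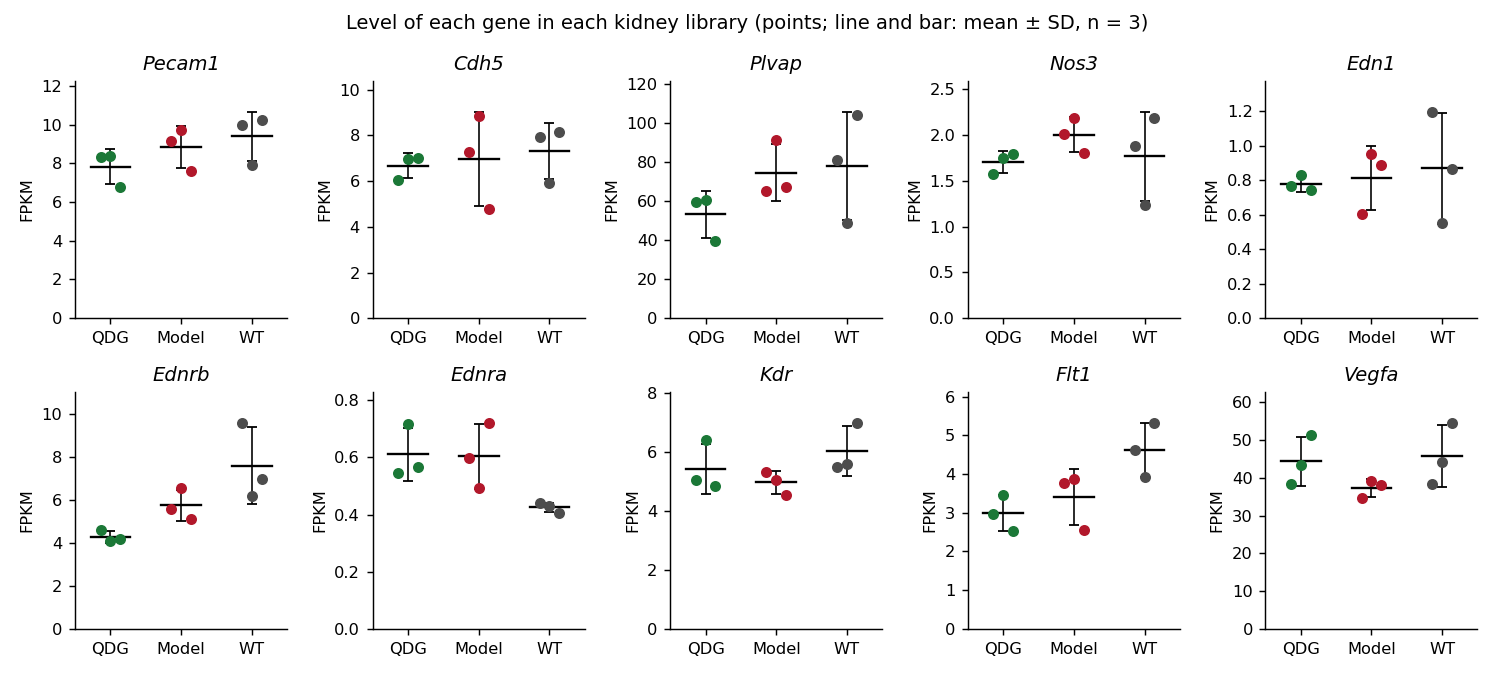
Level in FPKM of each of the 10 genes in each library of the QDG, Model and WT groups, with each axis starting at 0; points are libraries, and the line and bar give the mean ± SD of 3. Ednrb lies between 4.08 and 4.62 FPKM in QDG libraries and between 6.20 and 9.60 FPKM in WT libraries, and Ednra is higher in all QDG and all Model libraries than in all WT libraries.

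In QDG against WT, the mean of Ednrb was lower and that of Ednra higher, although Ednra passed in no fit. Flt1 and Ednrb had the lowest ratios of QDG to WT means of the members. Promoters of the endothelin genes and of Flt1 are shown for these reasons. They are rat sequences from RefSeq on the GRCr8 build, matched by symbol, from 250 bases before to 50 after the annotated start; if mouse RNA was sequenced, its promoters differ from these. Of the members, 8 had an entry, and Pecam1 and Cdh5 had none. Ednrb lies at chr15:87086716-87087015 (minus strand), Ednra at chr19:47137674-47137973 (plus), Edn1 at chr17:22666638-22666937 (minus) and Flt1 at chr12:12333180-12333479 (plus). Capitals mark matches, on either strand, to the TATA box TATAAA, the GC box GGGCGG, the ETS core CCGGAAG, the hypoxia response core ACGTG or the GATA site AGATAA, none of which overlap in these 4 sequences.
Ednrb: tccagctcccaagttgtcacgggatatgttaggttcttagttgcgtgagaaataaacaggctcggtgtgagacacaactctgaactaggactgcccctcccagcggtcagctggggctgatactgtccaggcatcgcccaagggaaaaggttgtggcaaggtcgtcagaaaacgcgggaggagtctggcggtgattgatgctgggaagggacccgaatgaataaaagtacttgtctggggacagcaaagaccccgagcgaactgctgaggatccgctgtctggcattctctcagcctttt
Ednra: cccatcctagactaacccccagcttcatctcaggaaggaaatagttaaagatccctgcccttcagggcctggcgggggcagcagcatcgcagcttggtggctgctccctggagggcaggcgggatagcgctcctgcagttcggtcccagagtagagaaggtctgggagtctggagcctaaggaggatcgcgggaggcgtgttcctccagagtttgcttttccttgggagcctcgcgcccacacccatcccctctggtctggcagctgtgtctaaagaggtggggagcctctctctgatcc
Edn1: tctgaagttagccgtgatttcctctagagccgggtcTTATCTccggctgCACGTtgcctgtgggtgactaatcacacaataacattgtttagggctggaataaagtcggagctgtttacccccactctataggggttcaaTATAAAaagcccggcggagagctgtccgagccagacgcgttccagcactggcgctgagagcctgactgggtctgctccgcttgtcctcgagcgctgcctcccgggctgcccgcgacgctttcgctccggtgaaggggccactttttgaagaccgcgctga
Flt1: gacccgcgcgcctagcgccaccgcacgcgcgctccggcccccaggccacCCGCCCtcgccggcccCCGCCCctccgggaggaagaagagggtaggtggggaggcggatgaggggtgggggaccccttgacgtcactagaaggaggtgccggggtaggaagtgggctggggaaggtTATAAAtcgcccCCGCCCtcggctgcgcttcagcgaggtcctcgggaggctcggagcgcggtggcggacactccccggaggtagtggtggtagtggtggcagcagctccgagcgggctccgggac
The Edn1 window held 1 TATA box, 1 GATA site and 1 hypoxia response core, and the Flt1 window held 1 TATA box and 3 GC boxes. The TATAAA letters began at −110 in Edn1 and at −75 in Flt1, relative to the annotated start. Whether any match works as a promoter element was not tested. The windows of both receptors held 0 matches to these 5 motifs, and the share of rat promoters with none of them was not counted. Each motif alone was absent from most rat promoters. Of 33469 rat promoters of the same length, 14.2% held the TATA box, 33.1% the GC box, 8.75% the ETS core, 19.3% the hypoxia response core and 11.6% the GATA site. No match was found to the ETS core in any of the 8 members, which says only that these letters are not in these windows.

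Ednrb, the clearing endothelin receptor (4266 bases of counted length), had 4.62, 4.08 and 4.16 FPKM in QDG libraries, against 5.58, 6.54 and 5.13 FPKM in Model libraries and 9.60, 6.20 and 6.99 FPKM in WT libraries. Every QDG library lay below every Model and every WT library, while Model and WT overlapped in the single pair of Model 2 and WT 2. The group means were 4.29 ± 0.287, 5.75 ± 0.721 and 7.60 ± 1.78 FPKM in QDG, Model and WT (SD, n = 3 each). Against WT, QDG was lower by a log2 of −0.68 (95% interval −1.0 to −0.36, SE 0.14, limma adjusted p = 0.0397). WT 1 stood highest, and without it the log2 difference was −0.52 (limma adjusted p = 0.0938). The call was also lost without Model 1, QDG 1, QDG 2 or QDG 3 (limma adjusted p = 0.0536, 0.122, 0.155 and 0.124) and with no limit on low values (limma adjusted p = 0.0604). Without QDG 1, QDG 2 or QDG 3 the log2 difference was −0.73, −0.66 and −0.67. In those fits 44, 39 and 65 of all features were called, in place of 301.

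Against Model, Ednrb in QDG differed by a log2 of −0.35 (95% interval −0.67 to −0.03, limma adjusted p = 0.331), and Model against WT by −0.33 (95% interval −0.66 to −0.01, limma adjusted p = 0.162). Neither passed after adjustment, although both had an unadjusted limma p under 0.05 (0.0363 and 0.0424). Without WT 1, Model against WT was −0.17 (limma adjusted p = 0.383). Model was thus not separated from either group by the test. Its mean lay between the other group means. Recovered reads for Ednrb were 503 to 566 in QDG, 587 to 837 in Model and 696 to 1073 in WT libraries, and the exact 95% Poisson interval for 566 reads (QDG 1), 520 to 615, lies below that for 696 reads (WT 2), 645 to 750. These intervals cover counting error only.

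Ednra, the receptor that contracts vessels (5476 bases), had 0.546, 0.717 and 0.568 FPKM in QDG libraries, against 0.597, 0.493 and 0.721 FPKM in Model libraries and 0.439, 0.430 and 0.407 FPKM in WT libraries. All QDG and all Model libraries lay above all WT libraries, and QDG and Model overlapped. The QDG mean was 1.43 times and the Model mean 1.42 times the WT mean. Ednra fell below the 1 FPKM limit; in a fit without that limit its log2 difference was 0.17 in QDG and 0.17 in Model against WT (limma adjusted p = 0.245 and 0.202). With a pseudocount of 0.1, which shrinks scarce genes less, the log2 differences were 0.43 and 0.41 (limma adjusted p = 0.288 and 0.242), and with voom on recovered reads 0.50 and 0.48 (limma adjusted p = 0.283 and 0.244). None passed. Depth limits this gene: libraries held 86 to 115 reads in QDG, 81 to 106 in Model and 62 to 70 in WT, and the 95% Poisson interval for 81 reads (Model 2), 64.3 to 101, overlaps that for 70 reads (WT 3), 54.6 to 88.4.

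Edn1, which encodes the endothelin-1 precursor (2139 bases), had 0.765, 0.831 and 0.743 FPKM in QDG libraries, against 0.601, 0.951 and 0.889 FPKM in Model libraries and 1.20, 0.551 and 0.863 FPKM in WT libraries. The groups overlapped, and the highest and the lowest library were both WT. Without the 1 FPKM limit, the log2 difference was −0.06 for QDG against WT (95% interval −0.34 to 0.23), −0.02 for QDG against Model and −0.04 for Model against WT (limma adjusted p = 0.852, 0.960 and 0.898). At 31 to 67 reads per library, small differences in this gene were not detectable.

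The balance of the receptors was read as the ratio of their FPKM values within a library, which does not depend on the library total. Ednrb exceeded Ednra by a factor of 8.45, 5.69 and 7.34 in QDG libraries, against 9.35, 13.3 and 7.11 in Model libraries and 21.9, 14.4 and 17.2 in WT libraries. Every QDG and every Model library lay below every WT library. The QDG ratio was 0.402 times the WT ratio and the Model ratio 0.546 times it (geometric means), and QDG against Model gave 0.737 with overlapping libraries. An exact two-sided permutation test gave p = 0.1 for both contrasts with WT, the smallest that 3 against 3 libraries allow, and p = 0.3 for QDG against Model. Over the 18 ratio tests made, the lowest adjusted p was 0.45, so none of the ratios passed. The size depends on the scale. With a pseudocount of 1 in both genes the log2 ratio was −0.86 in place of −1.31 for QDG against WT (exact permutation p = 0.1) and −0.50 in place of −0.87 for Model against WT (exact permutation p = 0.2). With all members chosen and earlier results of these data known, these ratios are a description.

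**Figure D2:**
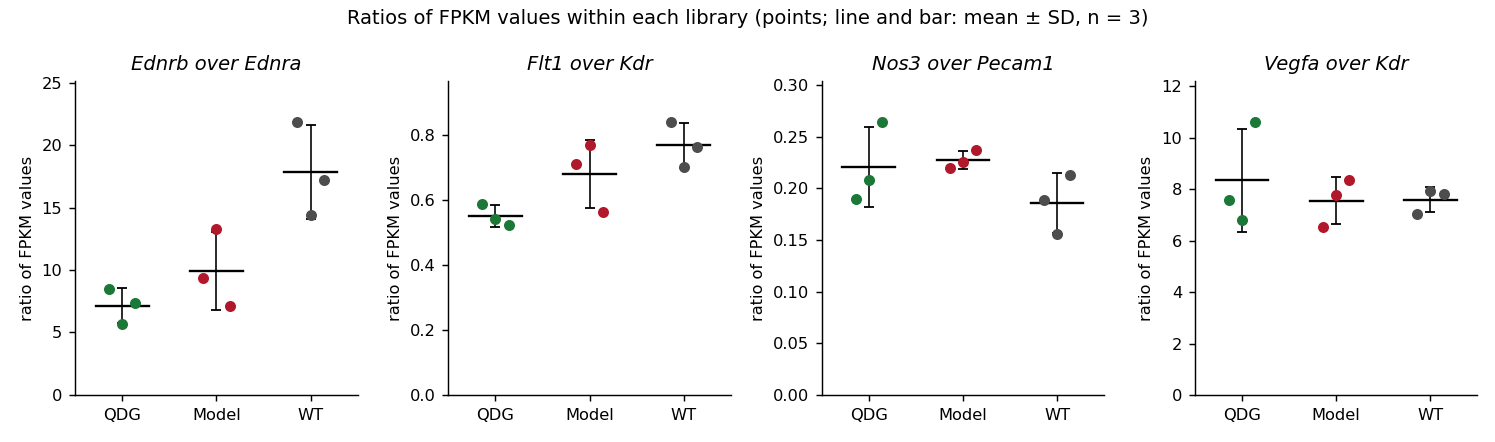
Ratios of FPKM values of 2 genes within each library, by group, with each axis starting at 0; points are libraries, and the line and bar give the mean ± SD of 3. The ratio of Ednrb to Ednra lies between 5.69 and 8.45 in QDG, between 7.11 and 13.3 in Model and between 14.4 and 21.9 in WT libraries.

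Relative to Pecam1 and Cdh5, Ednrb was lower in QDG than in WT as well. These ratios were added after the values had been seen and were not tested. Ratios of Ednrb to the other endothelial members are not printed, but the library levels given here show whether groups overlap. QDG and WT libraries overlap in Ednrb over Flt1 and over Plvap. They do not overlap in Ednrb over Kdr and over Nos3. The QDG mean was 0.564 times the WT mean for Ednrb, against 0.647 for Flt1 and 0.683 for Plvap. It was 0.835 times the WT mean for Pecam1, 0.901 for Kdr, 0.912 for Cdh5 and 0.965 for Nos3. Ednrb over Pecam1 was 0.552 ± 0.0634 in QDG, 0.653 ± 0.0365 in Model and 0.809 ± 0.143 in WT libraries (SD, n = 3 each), with all QDG and all Model libraries below all WT libraries. Ednrb over Cdh5 was 0.647 ± 0.0991 in QDG, 0.861 ± 0.188 in Model and 1.04 ± 0.175 in WT libraries, where QDG lay below WT and Model overlapped both.

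Of the VEGF genes, the decoy receptor Flt1 came closest to the threshold. Flt1 (13504 bases) had 2.97, 3.46 and 2.54 FPKM in QDG libraries, against 3.77, 3.88 and 2.56 FPKM in Model libraries and 4.61, 3.93 and 5.33 FPKM in WT libraries. All QDG and all Model libraries lay below all WT libraries, with Model 2 and WT 2 close to each other, and QDG overlapped Model. The log2 difference was −0.49 for QDG against WT (95% interval −0.83 to −0.16, SE 0.15, limma adjusted p = 0.106) and −0.36 for Model against WT (95% interval −0.69 to −0.02, limma adjusted p = 0.152). QDG against Model gave −0.13 (95% interval −0.47 to 0.20, limma adjusted p = 0.708). Without Model 3, Model against WT was −0.21 and QDG against Model −0.28. QDG against Model was −0.07 without Model 1, −0.05 without Model 2, −0.05 without QDG 3 and −0.22 without QDG 2.

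Flt1 is the longest member, and long features as a whole differed between libraries. The 3252 tested features over 6000 bases had a median log2 deviation from their 9-library means of −0.11 in Model 3 and 0.14 in WT 2, and between −0.06 and 0.04 in the other libraries. Removing each library's trend with feature length moved its log2 difference to −0.20 for Model against WT and to −0.26 for QDG against Model, while QDG against WT stayed near its value at −0.46 (limma adjusted p = 0.450, 0.566 and 0.120). On that scale WT 2 lay below Model 1 and Model 2, so Model and WT overlapped. Flt1 over Pecam1, added after the values had been seen and not tested, was 0.381 ± 0.0281 in QDG, 0.383 ± 0.0405 in Model and 0.492 ± 0.0283 in WT libraries (SD, n = 3 each). All QDG and all Model libraries lay below all WT libraries in this ratio.

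Kdr, the main signalling receptor for VEGF (9030 bases), had 5.04, 6.38 and 4.83 FPKM in QDG libraries, against 5.30, 5.05 and 4.55 FPKM in Model libraries and 5.48, 5.59 and 6.98 FPKM in WT libraries. All Model libraries lay below all WT libraries, although Model 1 and WT 1 were close, and QDG overlapped both groups. The log2 difference of Model against WT was −0.23 (95% interval −0.51 to 0.05, limma adjusted p = 0.254), of QDG against WT −0.13 (limma adjusted p = 0.578) and of QDG against Model 0.10 (limma adjusted p = 0.740). Without WT 3, Model against WT was −0.13 and QDG against WT −0.03. With the length trend removed, Model against WT gave −0.13 (limma adjusted p = 0.529), and WT 2 lay just below the lowest Model library, so these groups overlapped.

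Flt1 over Kdr, the decoy set against the signalling receptor, was 0.589, 0.542 and 0.525 in QDG libraries, against 0.711, 0.768 and 0.563 in Model libraries and 0.841, 0.703 and 0.763 in WT libraries. QDG lay below WT in all libraries, and Model overlapped both groups. The exact two-sided permutation p was 0.1 for QDG against WT, 0.2 for QDG against Model and 0.5 for Model against WT.

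Vegfa, which encodes the ligand (4285 bases), had 38.3, 43.5 and 51.3 FPKM in QDG libraries, against 34.7, 39.2 and 38.0 FPKM in Model libraries and 38.5, 44.3 and 54.7 FPKM in WT libraries. Model libraries were close together at the low end, and both other groups overlapped them and each other. The log2 difference was −0.28 for Model against WT (95% interval −0.61 to 0.06), 0.24 for QDG against Model (95% interval −0.10 to 0.57) and −0.04 for QDG against WT (limma adjusted p = 0.256, 0.498 and 0.905). Model against WT was −0.14 without WT 3, and QDG against Model was 0.13 without QDG 3. Vegfa was 1 of the 2 tested members, with Kdr, whose mean was higher in QDG than in Model. Vegfa over Kdr was 8.34 ± 2.01 in QDG, 7.56 ± 0.928 in Model and 7.59 ± 0.489 in WT libraries (SD, n = 3 each), with overlap throughout.

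None of the general endothelial markers passed the test in any comparison. Pecam1, a junction protein of nearly all endothelium, had 8.31, 8.40 and 6.79 FPKM in QDG libraries, against 9.14, 9.71 and 7.61 FPKM in Model libraries and 9.96, 7.93 and 10.3 FPKM in WT libraries. The groups overlapped, and the log2 difference was −0.23 for QDG against WT (95% interval −0.52 to 0.06), −0.15 for QDG against Model and −0.08 for Model against WT (limma adjusted p = 0.339, 0.619 and 0.726).

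Cdh5, the cadherin that holds endothelial cells to each other, had 6.06, 6.97 and 7.0 FPKM in QDG libraries, against 7.27, 8.86 and 4.76 FPKM in Model libraries and 7.93, 5.91 and 8.14 FPKM in WT libraries. Model 2 was the highest and Model 3 the lowest of the 9. The log2 difference was −0.11 for QDG against WT (95% interval −0.52 to 0.31), −0.02 for QDG against Model and −0.09 for Model against WT (limma adjusted p = 0.775, 0.968 and 0.790). Without Model 3 the last was 0.13 (limma adjusted p = 0.665).

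Plvap, which forms the diaphragms of capillary fenestrae, had 59.6, 60.8 and 39.5 FPKM in QDG libraries, against 65.3, 91.5 and 67.2 FPKM in Model libraries and 81.1, 48.9 and 104 FPKM in WT libraries. All QDG libraries lay below all Model libraries, while WT held both the highest library and one below most of QDG. It varied most of the members, with a highest library 2.63 times the lowest. The log2 difference was −0.50 for QDG against WT (95% interval −1.10 to 0.10), −0.49 for QDG against Model (95% interval −1.08 to 0.11) and −0.01 for Model against WT (limma adjusted p = 0.314, 0.437 and 0.978). QDG 3 was lowest, and without it the first 2 differences were −0.30 and −0.29. WT 2 was the lowest WT library, and without it QDG against WT was −0.80 (limma adjusted p = 0.102); without WT 3 it was −0.26.

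Nos3, the endothelial nitric oxide synthase, had 1.57, 1.74 and 1.79 FPKM in QDG libraries, against 2.01, 2.19 and 1.80 FPKM in Model libraries and 1.88, 1.23 and 2.18 FPKM in WT libraries. All QDG libraries lay below all Model libraries, but QDG 3 and Model 3 were nearly equal, and WT overlapped both groups. The log2 difference was −0.15 for QDG against Model (95% interval −0.45 to 0.15), 0.13 for Model against WT (95% interval −0.17 to 0.43) and −0.02 for QDG against WT (limma adjusted p = 0.636, 0.550 and 0.955). In human, NOS3 overlaps the antisense gene ATG9B, and strand-specific counting is not stated in the sources used here, so reads of such a partner could not be told apart. Nos3 over Pecam1 was 0.189, 0.208 and 0.264 in QDG libraries, against 0.220, 0.225 and 0.237 in Model libraries and 0.189, 0.155 and 0.213 in WT libraries. All Model libraries lay above all WT libraries in this ratio (exact two-sided permutation p = 0.1), and QDG overlapped both groups.

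**Figure D3:**
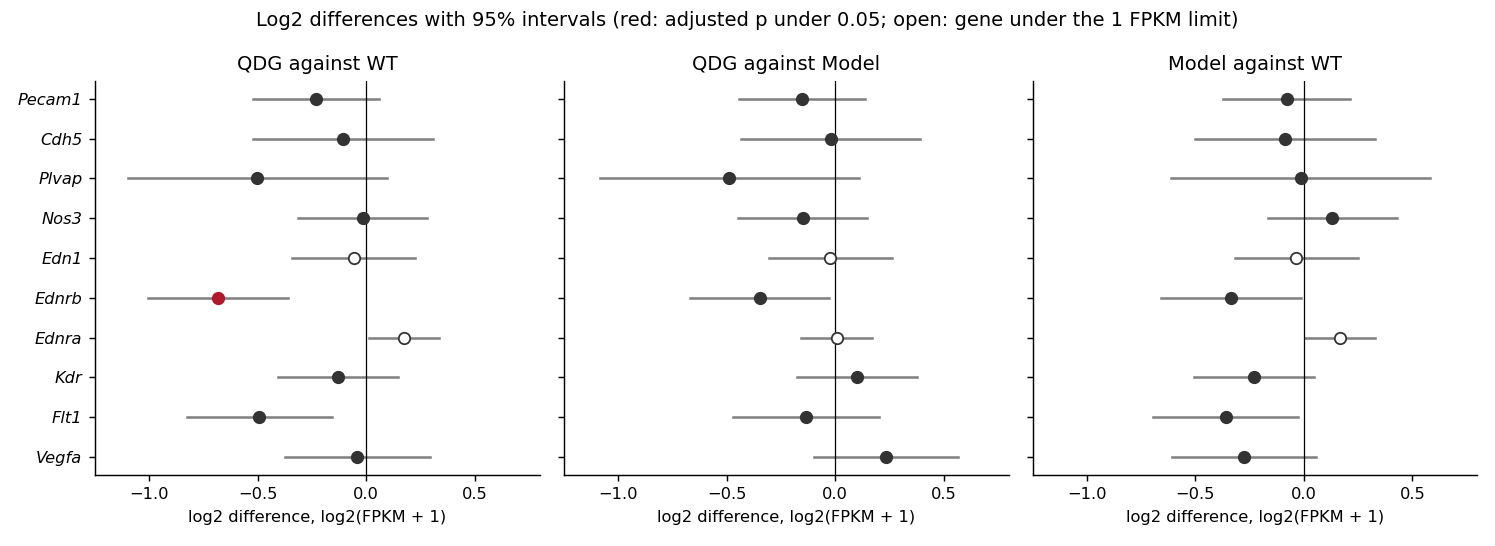
Difference of log2(FPKM + 1) for each gene in the 3 comparisons, with 95% intervals from limma; open points are genes under the 1 FPKM limit, taken from the fit without it. Ednrb in QDG against WT, at −0.68, is the 1 value called, and the intervals of Plvap are the widest.

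Counted over the members, QDG against WT had 1 called gene of 8 tested (Ednrb), where 2.47% of all 12187 features were called and 0.837% were called lower. All 8 tested members had a negative log2 difference, where 50.1% of all features tested were negative, and their median was −0.18, against −0.0012 over all features tested. Of these, Nos3 (−0.02) and Vegfa (−0.04) were near 0 and turned positive with some single libraries left out. Genes read in the same libraries are not independent, so the counts of signs here and below are a description. The groups did not overlap for 3 of the 10 members, Ednrb and Flt1 lower and Ednra higher, where 24.9% of all 17862 features did not overlap. At an unadjusted limma p under 0.05 stood 2 of 8 members, where 21.3% of all features did. The shares without overlap and at an unadjusted p are near the background.

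Model against WT had 0 called of 8 tested (limma), where 7.9% of all features were called and 1.9% were called lower, and 2 members, Ednrb and Flt1, had an unadjusted p under 0.05, where 28% of features did; voom on recovered reads also called 0. The median log2 difference of the 8 was −0.16, against 0.02 over all features tested, and 7 of the 8 were negative, where 47.0% of all features tested were negative. Kdr and Flt1 lay lower and Ednra higher without overlap, 3 of 10 members against 24.7% of all features. QDG against Model had 0 called of 8 (limma), as 0% of all features were called, and 1 member, Ednrb, had an unadjusted p under 0.05, where 13.9% of features did; voom called 0 here too. The median was −0.14, against −0.02 over all features tested. Ednrb, Plvap and Nos3 lay lower without overlap, 3 of 10 members against 23.2% of all features. The comparisons share libraries with each other, so their values are not independent. Half-widths of the 95% intervals, before adjustment, ran from 0.28 (Kdr) to 0.60 (Plvap) on the log2 scale, and differences smaller than that were not resolved.

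Libraries of 1 group also differed from each other. Each gene's log2(FPKM + 1) was set against its own mean over the 9 libraries. WT 1 and WT 3 were above that mean for 8 and 9 of the 10 genes, and for all 6 of Pecam1, Cdh5, Kdr, Flt1, Plvap and Nos3. WT 2 was above it for 4 of the 10 genes and for 2 of these 6, so the WT libraries did not behave alike. QDG 1 was above its genes' means for 1 of 10, Ednra, and QDG 3 for 3 of 10. Model 2 was above for 7 and Model 3 for 3. The summed level of these 6 endothelial genes was 83.6, 87.8 and 62.4 FPKM in QDG libraries, against 92.7, 121 and 88.5 FPKM in Model libraries and 111, 73.5 and 137 FPKM in WT libraries, with Plvap making up most of each sum. Without Plvap the sums were 24.0, 27.0 and 23.0 FPKM in QDG, against 27.5, 29.7 and 21.3 FPKM in Model and 29.9, 24.6 and 32.9 FPKM in WT libraries, and all groups overlapped.

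**Figure D4:**
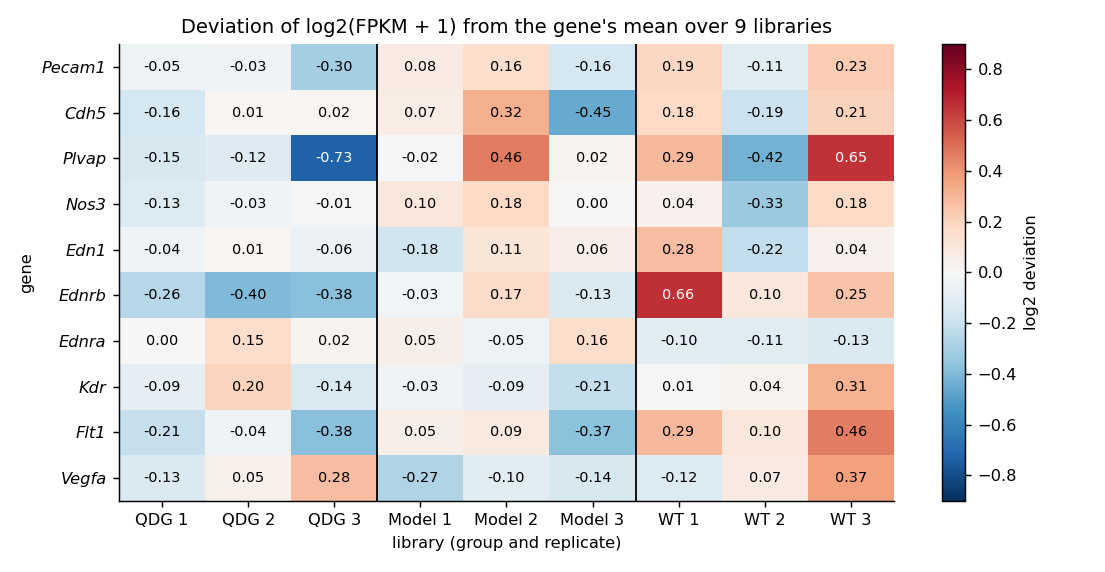
Deviation of each gene's log2(FPKM + 1) from its mean over the 9 libraries, for the QDG, Model and WT libraries; red is above and blue below the mean. WT 1 and WT 3 are above the mean for most genes, WT 2 is not, and Ednrb is below its mean in all 3 QDG libraries while Ednra is below its mean in all 3 WT libraries.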

How the data were processed

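The authors deposited FPKM values, reads scaled to feature length and library total, 1 per feature for each of 9 kidney samples. The files do not name this unit; it was read from the steps of the values, since whole reads (tolerance 0.0001 read, or 2e-07 of the value) could be recovered for 17854 of 17862 features (99.96%), with 99.9% of the lengths whole within 0.05 base. Per the labels' protocols, ribosomal RNA was depleted, so unspliced RNA can contribute. Limma is the 1 tool named from the submitters' processing notes, with aligner, counter and genome build not given in the sources used here.

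Features averaging 1 FPKM or more were fitted as log2(FPKM + 1) with limma 3.58.1 in R 4.3.3 (empirical Bayes with trend, no covariate). Groups followed the sample titles. Ratios of 2 genes within a library were compared by exact permutation tests in scipy 1.17.1. Members, lists and ratios were chosen with earlier results of these data known. All 10 members are named. The other pathway and cell type genes, listed as 84 symbols, were not analysed here, since no table used here pairs the files' identifiers with symbols; the members' names came with their identifiers. Correlations between genes over the 9 libraries are not given, because differences between groups would enter into them. Alternatives covered the pseudocount (also in the ratios), the limit on low values, quantile normalization, removal of the length trend, voom on recovered reads, fits of 2 groups, a replicate block and each library left out; the fits without the limit that used a pseudocount of 0.1 or voom, and the untested ratios, were chosen after seeing the data.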

Additional observations from a re-analysis of the deposited data

How the results depend on the processing

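Ednrb in QDG against WT was negative under all 20 alternatives and passed in 12 of them (limma adjusted p from 0.0276 to 0.155). The number of members called in that comparison was 0 in place of 1 with no limit on low values (with a pseudocount of 1 or 0.1) and with the replicate block, and 0 to 1 with 1 library left out. The block is not supported by the labels: same-numbered libraries correlated between −0.33 and 0.14 in their deviations from group means, and others between −0.24 and 0.43; under the block Ednrb had a limma adjusted p of 0.0663. The other 2 comparisons called 0 members under every alternative run. Signs turned in small differences that had not passed. Cdh5 in QDG against Model was 0.0036 with voom by the median ratio, and Nos3 over Pecam1 in QDG against Model was 0.0033 with a pseudocount of 1. With 1 library left out, Model against WT spanned −0.18 to 0.012 for Pecam1, −0.26 to 0.13 for Cdh5, −0.31 to 0.22 for Plvap, −0.016 to 0.24 for Nos3 and −0.16 to 0.088 for Edn1. QDG against Model spanned −0.24 to 0.15 for Cdh5, −0.0049 to 0.16 for Kdr, −0.11 to 0.033 for Edn1 and −0.043 to 0.059 for Ednra. QDG against WT spanned −0.16 to 0.091 for Nos3, −0.16 to 0.091 for Vegfa and −0.19 to 0.065 for Edn1. Log2 ratios spanned, in Model against WT, −0.088 to 0.089 for Vegfa over Kdr, −0.11 to 0.25 for Plvap over Pecam1 and −0.15 to 0.27 for Edn1 over Pecam1. In QDG against Model they spanned −0.064 to 0.26 for Vegfa over Kdr, −0.20 to 0.044 for Nos3 over Pecam1 and −0.099 to 0.31 for Edn1 over Pecam1. In QDG against WT they spanned −0.075 to 0.24 for Vegfa over Kdr and −0.0094 to 0.39 for Edn1 over Pecam1. The causes were not tested. Depth limits Edn1 and Ednra, with 31 to 115 reads per library.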
